A study of Homo sapiens with 24 samples.

Results

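The genes of cholesterol and fatty acid synthesis that the SREBP transcription factors control were followed in MDA-MB-231 cells after overexpression of MRTF-A. MDA-MB-231 is a mesenchymal-like line from a human breast tumour. The 33 genes were chosen by symbol: 6 regulators of SREBP activity, 7 enzymes of the early mevalonate pathway, 12 genes of squalene, sterol and sterol transfer steps, and 8 of fatty acid synthesis. Each symbol matched 1 of the 37247 gene ids measured. All 33 were among the 14986 genes with enough counts to be tested. Lines with 3 forms of MRTF-A and a control line were sequenced. The WT line overexpressed wild-type MRTF-A, a coactivator of SRF that responds to actin. The dSAP and dSRF lines overexpressed mutants whose names the labels do not spell out. All lines, control included, are labelled as given 1 ug/ml doxycycline for 72 h, and neither the promoter nor the number of clones behind a line is given. Each line was grown on a layer of matrigel, which is rich in basement membrane proteins (3D), or in culture plates (2D), with 3 libraries per line and culture, 24 libraries in 8 groups. The series asks how MRTF-A overexpression changes the transcriptome of this line. Whether replicates came from separate cultures is not stated, so the p-values measure only the spread between these libraries, which may be technical.

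SREBF1 and SREBF2 encode SREBP-1 and SREBP-2, transcription factors made as membrane proteins of the endoplasmic reticulum. When sterols are low, SCAP carries them to the Golgi, where proteases free the active domain, and SPRING1 helps this step. When sterols are plentiful, INSIG1 and INSIG2 hold SCAP back. SREBP-2 mainly drives genes of cholesterol synthesis, SREBP-1 mainly genes of fatty acid synthesis and desaturation, and INSIG1 is itself an SREBP target, as are SREBF1 and SREBF2. The mRNA levels below do not measure SREBP processing, which happens on the protein. Breast cancer cells can make their own fatty acids and cholesterol or take them up from serum.

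Upstream sequences from RefSeq (GRCh38.p14) were matched to 29 of the 33 genes, and the 250 bases before the RefSeq start were searched on both strands for 4 motifs. ACAT2, FDFT1, SQLE and FASN had no matched sequence and were not searched. GENCODE 29 places some starts further upstream, so the INSIG1 window below lies within its gene there (start 155297776). The same holds for the searched bases of EBP, DHCR7, ACLY and FADS2, among others. A sterol regulatory element written TCACNCCAC was found in 1 gene, SREBF2, and 0.875% of 27305 promoters of the same length hold it. The E-box TCACGTGA was found in 1 gene, INSIG1 (0.890% of promoters), and the CArG box, the motif SRF binds, in none (1.14% of promoters). CCAAT, the motif of NF-Y, a partner of SREBPs, was found in 19 of the 29, or 65.5%, against 33% of all promoters. A match is a description of letters only. The sequences below belong to genes on which the results turn, with motif matches of either strand in capitals (CCAAT reads ATTGG on the other strand). They are SPRING1 at chr12:116738071-116738319 (minus strand, 3 CCAAT matches), SREBF2 at chr22:41832855-41833078 (plus strand, the sterol regulatory element and 1 CCAAT), SCD at chr10:100346983-100347123 (plus strand, 2 CCAAT), STARD4 at chr5:111512591-111512785 (minus strand, 2 CCAAT) and a window of INSIG1 at chr7:155297811-155297840 (plus strand, the E-box).
SPRING1: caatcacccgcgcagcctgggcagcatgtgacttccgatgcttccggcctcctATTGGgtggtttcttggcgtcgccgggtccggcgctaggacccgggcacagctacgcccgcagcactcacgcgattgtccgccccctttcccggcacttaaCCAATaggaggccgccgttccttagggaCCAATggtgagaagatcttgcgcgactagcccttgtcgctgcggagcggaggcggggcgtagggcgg
SREBF2: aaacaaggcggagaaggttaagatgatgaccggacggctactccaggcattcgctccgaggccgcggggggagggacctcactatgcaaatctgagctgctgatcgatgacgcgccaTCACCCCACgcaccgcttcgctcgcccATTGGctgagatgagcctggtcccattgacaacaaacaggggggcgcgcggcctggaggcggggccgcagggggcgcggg
SCD: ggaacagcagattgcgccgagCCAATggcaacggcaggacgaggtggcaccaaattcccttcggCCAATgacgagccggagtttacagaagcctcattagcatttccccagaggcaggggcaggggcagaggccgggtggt
STARD4: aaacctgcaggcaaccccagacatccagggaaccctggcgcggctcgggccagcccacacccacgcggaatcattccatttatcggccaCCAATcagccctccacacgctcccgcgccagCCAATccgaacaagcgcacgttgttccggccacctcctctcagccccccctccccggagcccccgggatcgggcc
INSIG1: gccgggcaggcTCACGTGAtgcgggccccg

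Total counts ran from 13968829 to 23023415 per library. MRTFA, the induced gene, stood at 4492, 4444 and 4610.1 CPM (TMM-normalised counts scaled to a common library size) in 3D WT, 10628, 10168 and 10716 CPM in 3D dSAP, 664, 4840.3 and 4857 CPM in 3D dSRF and 29.5, 28.8 and 29.2 CPM in 3D control. In 2D it stood at 4517, 4825 and 4878 CPM in WT, 8765, 9628 and 9030.4 CPM in dSAP, 3180.4, 3170.1 and 3361 CPM in dSRF and 34.9, 38.3 and 39.1 CPM in control. Every library titled as an MRTF-A line was above every control library, and the groups follow the titles, since the genotype field disagrees with them for 16 of the 24 libraries. The library titled 3D dSRF replicate 1 stands apart: its MRTFA is the lowest of the MRTF-A lines, and its log2 CPM profile correlated at 0.950 with the closest library of its own group and at 0.971 with the 2D dSRF mean, across genes, which are not independent replicates. The other 3D dSRF libraries correlated at 0.984 with each other, and at 0.972 and 0.974 with the 2D dSRF mean. The value of 0.971 therefore does not set replicate 1 apart. A correlation with a group mean and one with a single library are also not like measures. Many results on 3D dSRF are therefore given with and without it. Group levels, orders in TPM, marker levels and some fold changes and interactions are given only with it. The line's markers VIM, CD44 and AXL were abundant in every group, and SPARC was near 0. Of the epithelial markers, CDH1 was at or below 2.3 CPM, while EPCAM and GATA3 were at 100.2 ± 39.7 and 8.78 ± 4.80 CPM in 3D dSRF and 16.0 ± 0.645 and 16.8 ± 0.705 CPM in 3D control. The keratin gene KRT8 reached 5089 ± 1312 CPM in 3D dSRF and 4350.2 ± 84.6 CPM in 2D dSRF, against 279 ± 12.9 CPM in 3D control and 443 ± 12.5 CPM in 2D control. Markers of immune, endothelial, fat and liver cells were near 0 except CD14.

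Per transcript length, SREBF1 was the most abundant of the 33 genes in control cells. In TPM, a scale corrected for transcript length, SREBF1 stood at 373 ± 61.0 in 3D control and 847 ± 82.7 in 2D control (mean ± SD, n = 3). Next in 2D control came SCD at 514 ± 30.2 TPM, the desaturase that makes oleic acid, then FASN at 243 ± 17.0 TPM, the fatty acid synthase, and FDPS at 234 ± 15.7 TPM, which makes farnesyl pyrophosphate. FASN and FDPS, neighbours in this order, lie close together. The least abundant in 2D control were SQLE at 8.52 ± 0.781 TPM, squalene epoxidase, HSD17B7 at 10.97 ± 2.39 TPM and MVD at 11.5 ± 2.79 TPM, and the last pair also lie within each other's spread. In 3D control the order below SREBF1 was EBP at 176 ± 3.56 TPM, a sterol isomerase, ACLY at 157 ± 4.20 TPM, which makes cytosolic acetyl-CoA from citrate, and SCD at 140.1 ± 34.9 TPM. In the dSRF line the order differed: SCD led in both cultures, with 508 ± 237 TPM in 3D and 595 ± 5.97 TPM in 2D, followed by FADS1, a desaturase of polyunsaturated fatty acids, with 486 ± 129 TPM in 3D and 511 ± 43.8 TPM in 2D. In 3D this pair lies within the spread of SCD. FADS1 and FADS2 overlap on opposite strands over 29694 bases (GENCODE 29). The sources used here do not give the strand setting of the counting, so their values are uncertain. The same holds for SREBF1, ACAT2, MVK, ACACA and ACSS2, which also overlap a gene on the other strand. CYP51A1, TM7SF2 and FADS2 overlap another gene on the same strand, and HSD17B7 and FDPS have pseudogenes, so reads could be split there too.

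**Figure D1:**
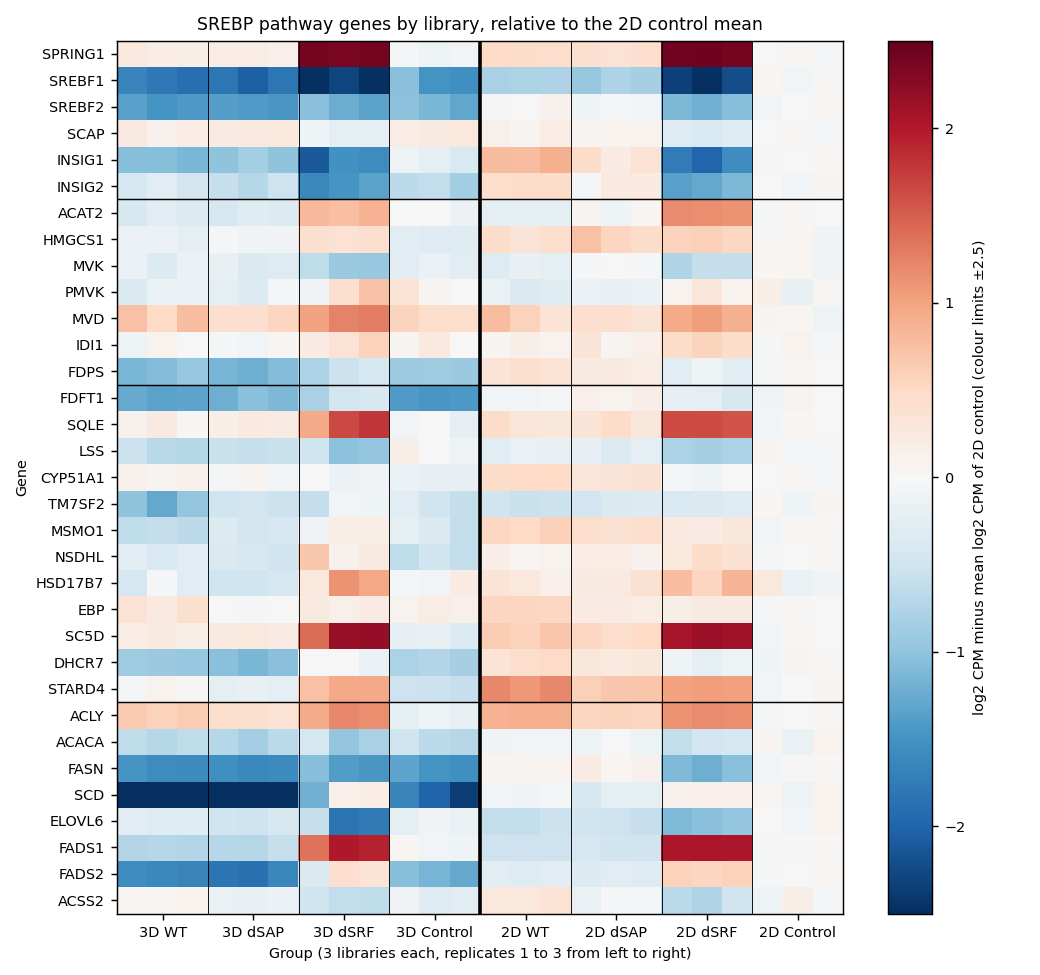
Rows are the 33 genes by role and columns the 24 libraries, 3D groups left of 2D groups; colour is log2 CPM minus the mean log2 CPM of 2D control, with colour limits at ±2.5. The 3D WT, dSAP and control libraries are blue for SREBF2, FASN and SCD. In both cultures the dSRF libraries are blue for SREBF2 and FASN and red for SPRING1, SC5D and FADS1. The first 3D dSRF library is paler than its replicates for FADS1. For SCD it is blue, and its replicates are near white.

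Much of the pathway was lower on matrigel than on plates in 3 of the 4 lines. Of the 33 genes, 24 fell and 0 rose in the WT line in 3D against 2D, 23 fell and 1 rose in dSAP, and 19 fell and 3 rose in control (edgeR quasi-likelihood test, adjusted p under 0.05 over all genes tested). Over all genes tested, 50.0% were called in WT (24.4% higher, 25.7% lower). In dSAP it was 47.8% (24.2% higher, 23.5% lower), and in control 47.4% (23.0% higher, 24.4% lower). The median log2 fold change of the 33 genes was -0.45 in WT, -0.36 in dSAP and -0.24 in control, beside 0.004, 0.011 and 0.002 over all genes tested. The libraries of these 3 comparisons are separate, but the fit shares 1 estimate of spread over all libraries. When 3D dSRF replicate 1, which belongs to none of the 3 lines, was left out, 26 fell and 1 rose in WT, beside 60.8% of all genes (29.9% higher, 30.9% lower). In that fit 26 fell and 1 rose in dSAP, beside 59.3% of all genes (29.9% higher, 29.3% lower), and 22 fell and 3 rose in control, beside 58.6% of all genes (28.8% higher, 29.9% lower). In bulk RNA, fewer cells expressing a gene and less RNA per cell cannot be told apart. By role, the falls in control were 3 of 6 regulators, 3 of 7 early mevalonate genes, 7 of 12 sterol genes and 6 of 8 fatty acid genes.

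Both SREBP genes fell on matrigel in these 3 lines. SREBF2 (chromosome 22, 41833079 to 41907308, GRCh38) stood at 81.6, 74.7 and 78.0 CPM in 3D WT, against 204, 211 and 226 CPM in 2D WT. In dSAP it stood at 81.1, 78.8 and 76.3 CPM in 3D and 195, 204 and 201 CPM in 2D, and in control at 103, 95.3 and 86.1 CPM in 3D and 202, 211 and 218 CPM in 2D. In each of the 3 lines every 3D library was below every 2D library. The log2 fold changes were -1.45 ± 0.07 in WT, -1.34 ± 0.07 in dSAP and -1.15 ± 0.07 in control (± SE of the fit; adjusted p = 1.03e-11, 2.66e-11 and 1.51e-10). SREBF1 (chromosome 17, 17810399 to 17837002) stood at 294, 271 and 252 CPM in 3D WT and 533, 542 and 552 CPM in 2D WT, at 267, 227 and 268 CPM in 3D dSAP and 486, 546 and 529.9 CPM in 2D dSAP, and at 454, 331 and 325 CPM in 3D control and 964, 897 and 950.1 CPM in 2D control. Again no 3D library reached a 2D library of its line. On the log2 scale the changes were -1.0 ± 0.15, -1.04 ± 0.15 and -1.34 ± 0.15 in WT, dSAP and control (adjusted p = 2.52e-05, 1.79e-05 and 8.03e-07). SCAP, the carrier, showed no such fall: its log2 fold change was 0.04 ± 0.04 in WT (adjusted p = 0.51), 0.15 ± 0.04 in dSAP (adjusted p = 0.00844; the call ended without the low-count filter and without 2D dSAP replicate 1) and 0.22 ± 0.04 in control (adjusted p = 0.000356), and on log2(TPM + 1) its values were 0.42 in dSAP and 0.38 in control. INSIG1 changed by -1.92 ± 0.12 in WT (adjusted p = 1.86e-10) and -1.30 ± 0.12 in dSAP (adjusted p = 3.03e-08), and its control value was -0.24 ± 0.11 (adjusted p = 0.0857). Leaving 3D dSRF replicate 1 out of the fit gave -0.25 ± 0.08 in control, which was called (adjusted p = 0.00823). INSIG2 fell in all 3, -0.83 ± 0.09 in WT, -0.76 ± 0.09 in dSAP and -0.71 ± 0.09 in control. SPRING1 was at -0.27 ± 0.04 in WT, -0.22 ± 0.04 in dSAP, where the call was lost on log2(TPM + 1) (adjusted p = 0.0503), and -0.08 ± 0.04 in control (adjusted p = 0.0816).

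SCD and FASN, genes of fatty acid desaturation and synthesis, were among the largest falls on matrigel. SCD (chromosome 10, 100347124 to 100364834) stood at 199, 191 and 169 CPM in 3D WT, against 1289.8, 1277 and 1321 CPM in 2D WT. The values were 184, 152 and 199 CPM in 3D dSAP and 1034, 1153 and 1141 CPM in 2D dSAP, and 432, 338 and 265 CPM in 3D control and 1397, 1249 and 1435 CPM in 2D control. The cultures did not overlap in any of these lines. These were log2 fold changes of -2.80 ± 0.25, -2.64 ± 0.25 and -1.98 ± 0.24 in WT, dSAP and control (adjusted p = 3.6e-08, 7.91e-08 and 1.85e-06). FASN (chromosome 17, 82078333 to 82098332) stood at 335, 311 and 309 CPM in 3D WT and 976, 974 and 987 CPM in 2D WT, at 320.1, 304 and 311 CPM in 3D dSAP and 1076, 962 and 1009.8 CPM in 2D dSAP, and at 371, 329 and 319.9 CPM in 3D control and 891, 957 and 948 CPM in 2D control. It fell in each line, with log2 fold changes of -1.62 ± 0.08, -1.70 ± 0.08 and -1.45 ± 0.08 (adjusted p = 1.64e-11, 7.48e-12 and 5.58e-11). FADS2, another desaturase of polyunsaturated fatty acid synthesis, fell by a log2 fold change of -1.31 ± 0.13 in WT, -1.46 ± 0.13 in dSAP and -1.17 ± 0.13 in control. ACACA, which makes malonyl-CoA, changed by -0.59 ± 0.10, -0.67 ± 0.10 and -0.62 ± 0.10 in the same order. For ACACA the values were smaller on log2(TPM + 1), -0.31, -0.36 and -0.34. ELOVL6, which elongates palmitate, and FADS1 were not called in any of the 3 lines. The log2 fold changes were 0.29, 0.06 and -0.16 for ELOVL6 and -0.21, -0.20 and -0.04 for FADS1. That rests on 3D dSRF replicate 1 in the shared fit. With it left out, ELOVL6 was called as higher in WT, 0.29 ± 0.05 (adjusted p = 8.28e-06), and lower in control, -0.17 ± 0.05 (adjusted p = 0.00275), and FADS1 as lower in WT, -0.21 ± 0.04 (adjusted p = 6.3e-05), and dSAP, -0.20 ± 0.04 (adjusted p = 0.000151).

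Among cholesterol genes the falls on matrigel were spread along the pathway. FDFT1, squalene synthase, stood at 30.9, 29.4 and 29.9 CPM in 3D WT and 71.2, 71.1 and 72.1 CPM in 2D WT, and at 27.8, 27.1 and 27.3 CPM in 3D control and 70.3, 79.0 and 73.9 CPM in 2D control. Its log2 fold change was -1.25 ± 0.08 in WT, -1.26 ± 0.08 in dSAP and -1.44 ± 0.08 in control (adjusted p = 4.03e-10, 3.34e-10 and 5.58e-11). The cultures did not overlap. FDPS, the enzyme before it, changed by -1.40 ± 0.07, -1.38 ± 0.07 and -0.90 ± 0.07. DHCR7, which makes the last step to cholesterol in one branch, changed by -1.34 ± 0.06, -1.35 ± 0.06 and -0.79 ± 0.06. STARD4, a sterol transfer protein, changed by -1.13 ± 0.06, -0.86 ± 0.06 and -0.55 ± 0.06. MSMO1, a sterol methyl oxidase, changed by -1.16 ± 0.07, -0.83 ± 0.07 and -0.40 ± 0.07. All of these were called as lower in WT, dSAP and control. Steps without a called fall in any of the 3 lines were PMVK, MVD, IDI1 and SQLE. When 3D dSRF replicate 1 was left out of the fit, SQLE was called as lower in WT, -0.23 ± 0.08 (adjusted p = 0.0185), and IDI1 in dSAP, -0.19 ± 0.07 (adjusted p = 0.0309). MVD rose in control, 0.48 ± 0.10 (adjusted p = 0.000876). HMGCS1, HMG-CoA synthase, changed by -0.59 ± 0.06 in WT, -0.66 ± 0.06 in dSAP and -0.29 ± 0.06 in control. On log2(TPM + 1) these values were -0.31, -0.42 and 0.10, and the control value was not called.

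In the dSRF line the log2 fold changes between cultures lay between -0.39 and 0.23. Of the 33, 4 fell and 1 rose in 3D against 2D, and the background was also lower, 17.0% of all genes tested (7.19% higher, 9.84% lower). Without 3D dSRF replicate 1, 12 fell and 4 rose, with 48.2% of all genes (19.8% higher, 28.4% lower) called. The log2 fold changes of the 33 then ran between -0.76 and 0.41. SCD stood at 593, 1484 and 1542 CPM in 3D dSRF and 1466, 1492 and 1486 CPM in 2D dSRF. The first 3D library is the low one, and the other 3D libraries lie near or above the 2D libraries. The log2 fold change was -0.30 ± 0.23 (adjusted p = 0.414), and 0.03 ± 0.14 without it (adjusted p = 0.894). FASN stood at 447, 352 and 342 CPM in 3D dSRF and 434, 397 and 454 CPM in 2D dSRF. The log2 fold change was -0.17 ± 0.08 (adjusted p = 0.155), and -0.31 ± 0.06 without that library (adjusted p = 0.000133). SREBF2 stood at 103, 89.6 and 82.8 CPM in 3D dSRF and 97.1, 91.8 and 101 CPM in 2D dSRF. On the log2 scale the change was -0.08 ± 0.07, and -0.17 ± 0.06 without that library (adjusted p = 0.0259). The called falls were ACAT2 (-0.34 ± 0.05), FDPS (-0.37 ± 0.07), FDFT1 (-0.27 ± 0.08) and FADS2 (-0.39 ± 0.12), and SCAP rose (0.15 ± 0.04). None of the 5 calls stood when only the libraries compared were fitted. Without 3D dSRF replicate 1, FDFT1 was -0.15 ± 0.06 and FADS2 -0.18 ± 0.05, and SCAP was not called, 0.10 ± 0.04 (adjusted p = 0.0581).

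The difference between the dSRF and control lines in their response to matrigel was tested as an interaction, the dSRF effect in 3D minus that in 2D. Of the 33 genes, 13 were called as more positive and 1 as more negative, beside 29.2% of all genes tested (14.7% more positive, 14.6% more negative). The interaction was 1.68 ± 0.33 for SCD (adjusted p = 0.000729), 1.28 ± 0.12 for FASN (adjusted p = 1.1e-07), 1.17 ± 0.11 for FDFT1 (adjusted p = 2.72e-07) and 1.08 ± 0.10 for SREBF2 (adjusted p = 1.57e-07). SREBF1 (1.09 ± 0.22), DHCR7 (0.90 ± 0.08), FADS2 (0.78 ± 0.17), FDPS (0.54 ± 0.10), INSIG2 (0.49 ± 0.13) and STARD4 (0.41 ± 0.08) were also called as more positive, and ACAT2 (-0.30 ± 0.08) as more negative. The positive values join different patterns of levels. Mean SCD was 1206 CPM in 3D dSRF and 345 CPM in 3D control, and 1482 and 1360 CPM in 2D. FASN, SREBF2 and SREBF1 were already below control in 2D dSRF. Their 2D means in dSRF and control were 428 and 932 CPM, 96.7 and 211 CPM, and 184 and 937 CPM. Without 3D dSRF replicate 1, 16 were more positive and 4 more negative, beside 43.8% of all genes (19.9% more positive, 24% more negative). The values were then 2.01 ± 0.19 for SCD, 1.15 ± 0.08 for FASN, 1.29 ± 0.08 for FDFT1 and 0.99 ± 0.08 for SREBF2. The FADS2 call was lost on log2(TPM + 1) (adjusted p = 0.0537).

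**Figure D2:**
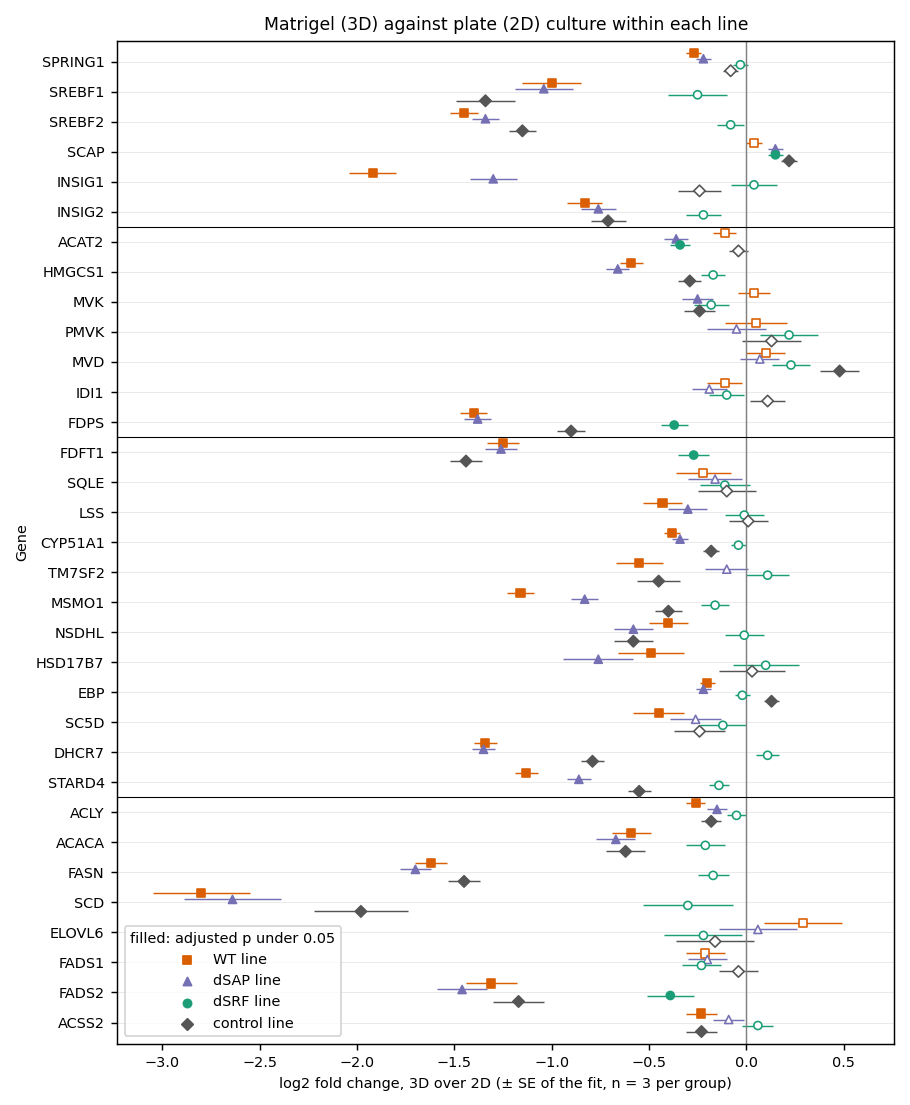
Points are log2 fold changes of 3D over 2D within each line (horizontal axis, ± SE of the fit, n = 3 per group) for the 33 genes by role; filled points passed adjusted p under 0.05. SCD lies at -2.80, -2.64 and -1.98 in WT, dSAP and control but at -0.30 in dSRF, and the dSRF points lie near 0 for SREBF1, SREBF2, FDFT1 and FASN as well.

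The 6 regulators went in different directions in the dSRF line, against control: 1 rose and 4 fell in 3D, and 1 rose and 5 fell in 2D. Over all 33 genes, 19 rose and 8 fell in 3D, and 15 rose and 15 fell in 2D. Without 3D dSRF replicate 1, 20 rose and 10 fell in 3D, beside 72.8% of all genes (37.2% higher, 35.6% lower). With all libraries the background was 66.4% of all genes tested in 3D (35.1% higher, 31.3% lower) and 66.0% in 2D (34.5% higher, 31.5% lower). The regulator that rose was SPRING1 (chromosome 12, 116710185 to 116738070, listed as C12orf49 in GENCODE 29). It stood at 609, 590.2 and 605 CPM in 3D dSRF, against 112, 107 and 111 CPM in 3D control, and at 618, 622 and 608 CPM in 2D dSRF, against 115, 119 and 114 CPM in 2D control. The dSRF libraries, including 3D dSRF replicate 1, all lie far above every other library. In log2 terms the difference was 2.45 ± 0.04 in 3D (adjusted p = 3.46e-20; 2.44 ± 0.04 without that library) and 2.41 ± 0.04 in 2D (adjusted p = 9.55e-20).

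Both INSIG genes fell in the dSRF line. INSIG1 (chromosome 7, 155297776 to 155310235) stood at 26.6, 39.8 and 38.5 CPM in 3D dSRF and 104, 97.2 and 88.1 CPM in 3D control, and at 33.9, 28.8 and 38.8 CPM in 2D dSRF and 112, 113 and 117 CPM in 2D control. No dSRF library reached a control library of its culture. The log2 fold change was -1.47 ± 0.12 in 3D (adjusted p = 1.63e-09; -1.30 ± 0.09 without 3D dSRF replicate 1) and -1.75 ± 0.12 in 2D (adjusted p = 1.89e-10). INSIG2 changed by -0.77 ± 0.09 in 3D (adjusted p = 2.81e-07; -0.70 ± 0.10 without that library) and -1.26 ± 0.09 in 2D (adjusted p = 3.01e-10). SREBF1 stood at 106, 189.8 and 167 CPM in 3D dSRF and 185, 165 and 201 CPM in 2D dSRF, below the control values given above in each culture. Its log2 fold change against control was -1.26 ± 0.15 in 3D (adjusted p = 6.45e-07; -1.05 ± 0.13 without 3D dSRF replicate 1) and -2.35 ± 0.16 in 2D (adjusted p = 1.95e-10). SREBF2 was lower than control in 2D, -1.12 ± 0.07 (adjusted p = 5.45e-11). In 3D, where control itself was low, the difference was -0.05 ± 0.07 (adjusted p = 0.575), and -0.14 ± 0.06 without 3D dSRF replicate 1 (adjusted p = 0.0475). SCAP was slightly lower in both, -0.42 ± 0.04 in 3D (-0.24 on log2(TPM + 1), -0.46 ± 0.04 without 3D dSRF replicate 1) and -0.34 ± 0.04 in 2D. In 2D the call was lost on log2(TPM + 1) (adjusted p = 0.0784).

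**Figure D3:**
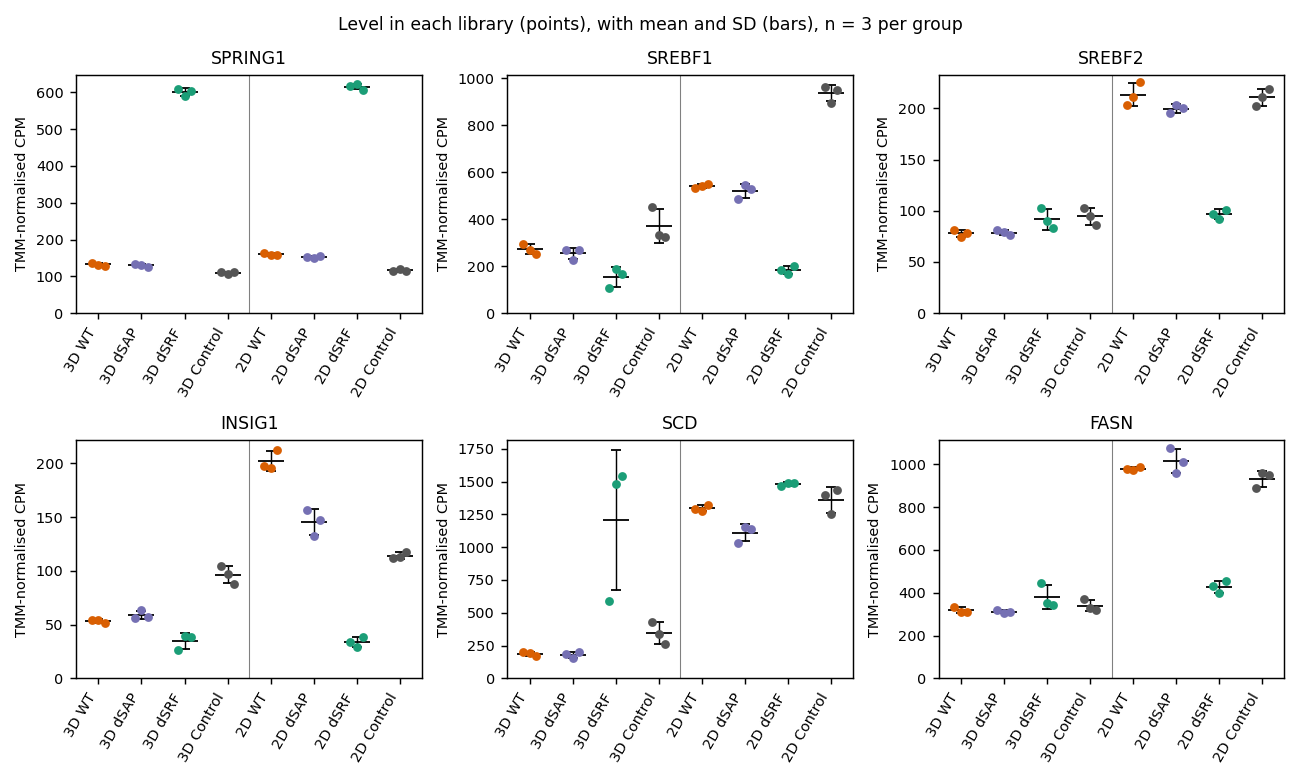
Points are TMM-normalised CPM in each library for SPRING1, SREBF1, SREBF2, INSIG1, SCD and FASN, with mean and SD (n = 3), 3D groups left of 2D groups and the MRTF-A lines left of control. SPRING1 is high only in the dSRF groups among those plotted, at 601 ± 9.83 CPM in 3D and 616 ± 7.13 CPM in 2D. SREBF2, SCD and FASN are low in 3D WT, dSAP and control. SREBF2 and FASN are also low in dSRF in both cultures. Their dSRF means are 91.7 CPM in 3D and 96.7 CPM in 2D for SREBF2, and 380 and 428 CPM for FASN.

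Of the 12 genes of squalene, sterol and sterol transfer steps, 9 were higher and 1 lower in dSRF than in control on matrigel. Over all genes the shares were 35.1% higher and 31.3% lower. On plates 7 of the 12 were higher and 4 lower, beside 34.5% and 31.5% of all genes. SC5D, a sterol desaturase (chromosome 11, 121292453 to 121308694), stood at 145, 249 and 253 CPM in 3D dSRF and 47.6, 48.2 and 43.4 CPM in 3D control, and at 229, 240.1 and 237 CPM in 2D dSRF and 52.4, 56.9 and 55.4 CPM in 2D control. Although 3D dSRF replicate 1 was the lowest dSRF library, it lay above every control library. On the log2 scale the change was 2.22 ± 0.13 in 3D (adjusted p = 2.22e-11; 2.44 ± 0.05 without that library) and 2.10 ± 0.13 in 2D (adjusted p = 5.68e-11). SQLE makes the first oxygenated intermediate after squalene. It stood at 21.3, 34.6 and 38.0 CPM in 3D dSRF and 10.5, 11.2 and 9.38 CPM in 3D control. In 2D it stood at 34.3, 34.1 and 32.9 CPM in dSRF and 10.5, 11.5 and 11.1 CPM in control. It is among the least abundant of the 33 genes, and its dSRF libraries were all above its control libraries. The fitted log2 fold changes were 1.60 ± 0.14 in 3D and 1.61 ± 0.14 in 2D (adjusted p = 6.56e-09 and 6.82e-09). STARD4 stood at 138, 161 and 161 CPM in 3D dSRF and 57.8, 56.9 and 55.4 CPM in 3D control, and at 166, 170.4 and 169.9 CPM in 2D dSRF and 78.9, 83.7 and 86.9 CPM in 2D control. Its groups did not overlap either. Fold changes on the log2 scale were 1.43 ± 0.06 and 1.02 ± 0.06 (adjusted p = 4.23e-14 and 6.66e-12). LSS, lanosterol synthase, was lower in both cultures, -0.83 ± 0.10 in 3D and -0.80 ± 0.10 in 2D. FDFT1 and DHCR7 were higher in 3D, 0.89 ± 0.08 and 0.74 ± 0.06, and lower in 2D, -0.28 ± 0.08 and -0.16 ± 0.06. The DHCR7 call in 2D was lost on log2(TPM + 1) (adjusted p = 0.287) and without 2D control replicate 2 or 3 or 2D dSRF replicate 2. Of the early mevalonate genes, ACAT2, the acetyl-CoA acetyltransferase at the start of the pathway, rose most, 0.85 ± 0.05 in 3D and 1.15 ± 0.05 in 2D. MVD followed, 0.70 ± 0.10 and 0.95 ± 0.10, and then HMGCS1, 0.68 ± 0.06 and 0.56 ± 0.06. MVK, mevalonate kinase, fell, -0.59 ± 0.08 and -0.65 ± 0.08. In the fit without 3D dSRF replicate 1, the 3D values were 1.81 ± 0.08 for SQLE, 1.5 ± 0.05 for STARD4, -1.01 ± 0.06 for LSS, 1.01 ± 0.06 for FDFT1 and 0.71 ± 0.06 for DHCR7. For the mevalonate genes they were 0.85 ± 0.06 for ACAT2, 0.77 ± 0.10 for MVD, 0.68 ± 0.06 for HMGCS1 and -0.70 ± 0.09 for MVK.

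In fatty acid synthesis the dSRF line had higher desaturase genes and lower ELOVL6. FADS1 (chromosome 11, 61799625 to 61829318) stood at 563, 873 and 833 CPM in 3D dSRF and 225, 209 and 204 CPM in 3D control, and at 891, 896 and 883 CPM in 2D dSRF and 213, 222 and 222 CPM in 2D control. The groups lie far apart in both cultures. The log2 fold changes were 1.83 ± 0.10 in 3D (adjusted p = 6.28e-12; 2.00 ± 0.04 without 3D dSRF replicate 1) and 2.02 ± 0.10 in 2D (adjusted p = 2.07e-12). FADS2, its overlapping neighbour, changed by 1.34 ± 0.13 in 3D and 0.57 ± 0.12 in 2D. SCD differed from control in 3D, 1.81 ± 0.24 (adjusted p = 1.94e-06; 2.13 ± 0.14 without 3D dSRF replicate 1), but its 2D value was 0.12 ± 0.23 (adjusted p = 0.66). For FASN the differences were 0.16 ± 0.08 in 3D (adjusted p = 0.0891) and -1.12 ± 0.08 in 2D (adjusted p = 4.47e-10). ACLY stood at 782, 948 and 925 CPM in 3D dSRF and 349, 375 and 364 CPM in 3D control, and at 897, 927 and 918 CPM in 2D dSRF and 402, 415 and 419 CPM in 2D control. It was higher in every dSRF library. These were log2 fold changes of 1.29 ± 0.05 and 1.15 ± 0.05 (adjusted p = 9.66e-14 and 6.63e-13). ACSS2, which makes acetyl-CoA from acetate, fell, -0.35 ± 0.08 in 3D and -0.64 ± 0.08 in 2D. ELOVL6 fell too, -1.09 ± 0.20 in 3D (-1.63 ± 0.06 without 3D dSRF replicate 1) and -1.04 ± 0.20 in 2D. The 3D values without 3D dSRF replicate 1 were 1.55 ± 0.05 for FADS2, 0.02 ± 0.06 for FASN, 1.37 ± 0.04 for ACLY and -0.40 ± 0.08 for ACSS2. KRT8, given above, is higher in the same libraries, and its part in these differences was not tested.

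**Figure D4:**
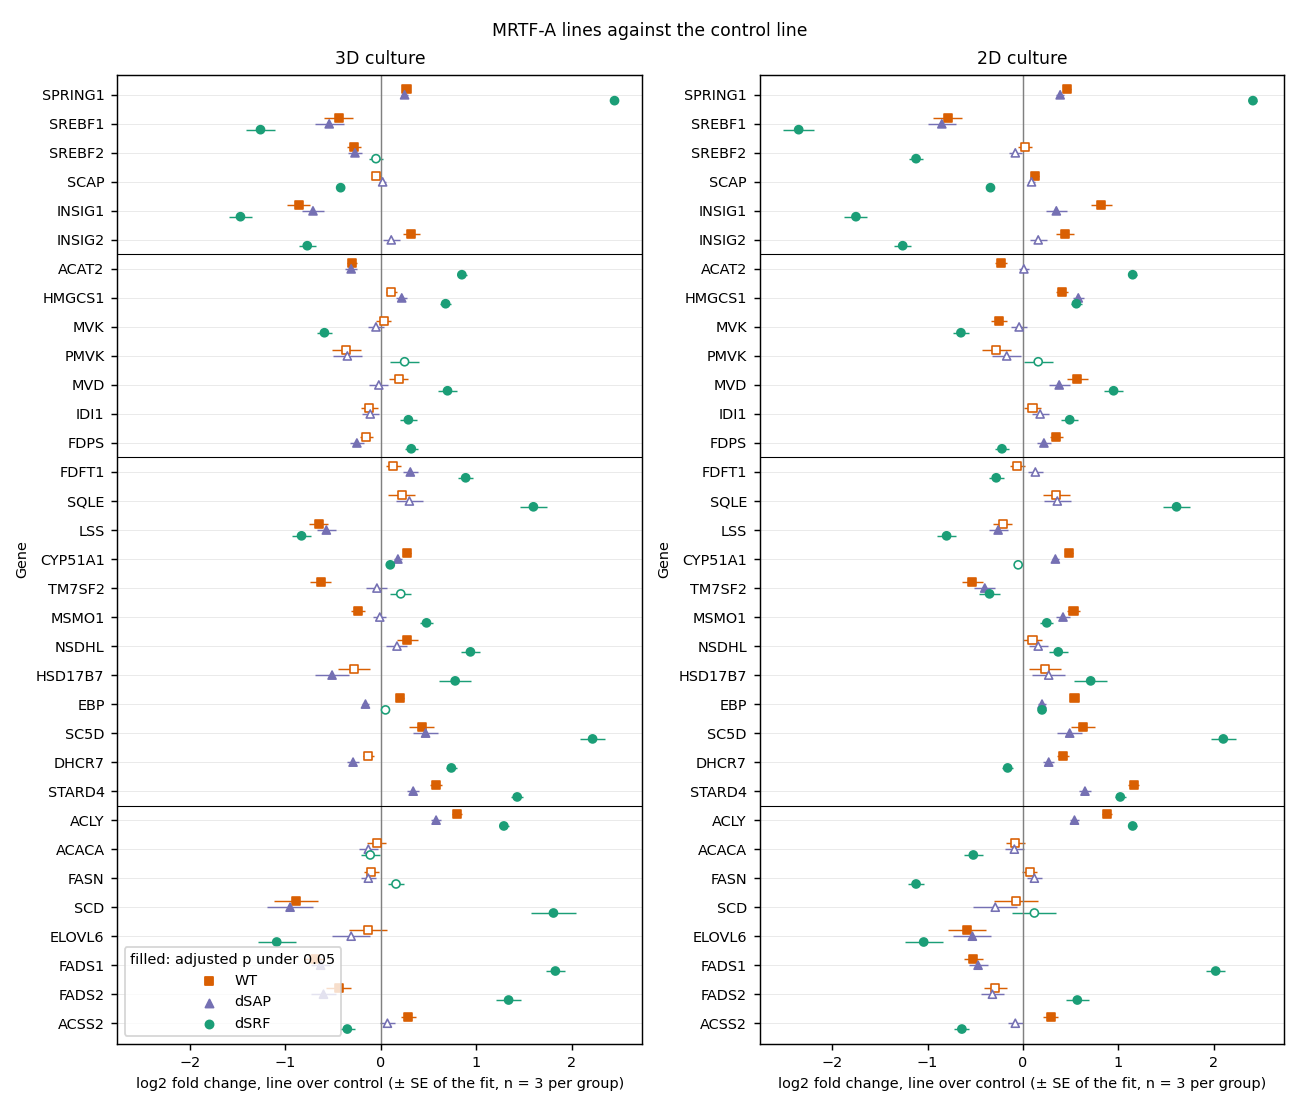
Points are log2 fold changes of each MRTF-A line over control (horizontal axis, ± SE of the fit, n = 3 per group) in 3D (left) and 2D (right); filled points passed adjusted p under 0.05. The dSRF points lie furthest from 0 for SPRING1 (2.45), SC5D and FADS1 in 3D. In 2D they lie furthest from 0 for SPRING1 (2.41), SREBF1 (-2.35), SC5D and FADS1. The WT and dSAP points for STARD4 and ACLY lie right of 0 in both cultures.

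In the WT and dSAP lines STARD4, ACLY, SPRING1, SC5D and CYP51A1 rose against control in both cultures, and SREBF1 and FADS1 fell. Against control in 3D, 9 of the 33 rose and 10 fell in WT, and 7 rose and 12 fell in dSAP. In 2D, 15 rose and 6 fell in WT, and 12 rose and 5 fell in dSAP. The background was 35.0% of all genes tested for 3D WT (18.0% higher, 17.0% lower), 29.6% for 3D dSAP (16.5% higher, 13.1% lower), 39.3% for 2D WT (20.1% higher, 19.2% lower) and 32.9% for 2D dSAP (17.5% higher, 15.4% lower). In the fit without 3D dSRF replicate 1, 10 rose and 13 fell in 3D WT, 9 and 14 in 3D dSAP, 16 and 9 in 2D WT and 16 and 6 in 2D dSAP, beside 48.1%, 44.0%, 51.9% and 47.1% of all genes called. All lines share the control libraries of a culture, so their differences from control are not independent of each other. The medians of the 33 genes were -0.10 in 3D WT, -0.11 in 3D dSAP, 0.13 in 2D WT and 0.16 in 2D dSAP, beside -0.017, 0.002, -0.024 and -0.008 over all genes tested.

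STARD4 stood at 81.6, 88.2 and 84.4 CPM in 3D WT and 71.4, 73.5 and 70.8 CPM in 3D dSAP, and at 191, 176 and 189.9 CPM in 2D WT and 125, 132 and 134 CPM in 2D dSAP, against the control values given above. Every WT and dSAP library lay above every control library of its culture. In log2 terms the difference was 0.58 ± 0.06 in 3D WT (adjusted p = 8.79e-08), 0.34 ± 0.06 in 3D dSAP (adjusted p = 0.000105), 1.16 ± 0.06 in 2D WT (adjusted p = 2.31e-12) and 0.65 ± 0.06 in 2D dSAP (adjusted p = 2.59e-08). ACLY stood at 644, 615 and 635 CPM in 3D WT and 555, 545 and 529 CPM in 3D dSAP, and at 748, 760.1 and 767 CPM in 2D WT and 598, 609 and 594 CPM in 2D dSAP. It was above control in every library too. In log2 terms the differences were 0.80 ± 0.05 and 0.58 ± 0.05 in 3D WT and dSAP and 0.88 ± 0.05 and 0.54 ± 0.05 in 2D (adjusted p = 2.99e-10, 6.62e-08, 7.19e-11 and 1.5e-07). SPRING1 also rose, 0.27 ± 0.04 and 0.25 ± 0.04 in 3D WT and dSAP and 0.46 ± 0.04 and 0.39 ± 0.04 in 2D. SC5D changed by 0.43 ± 0.13 (a call lost on log2(TPM + 1) and without 3D control replicate 3) and 0.47 ± 0.13 in 3D WT and dSAP and by 0.63 ± 0.13 and 0.49 ± 0.13 in 2D. CYP51A1, lanosterol demethylase, changed by 0.28 ± 0.04 and 0.18 ± 0.04 in 3D and 0.48 ± 0.04 and 0.34 ± 0.04 in 2D. Among the genes that fell, SREBF1 changed by -0.44 ± 0.15 and -0.54 ± 0.15 in 3D WT and dSAP and by -0.79 ± 0.15 and -0.85 ± 0.15 in 2D. On log2(TPM + 1) neither 3D call held (adjusted p = 0.123 and 0.199), and neither held when only the libraries compared were fitted or without 3D control replicate 1. The WT call also ended without 3D WT replicate 2 or 3, and the dSAP call without 3D dSAP replicate 2. FADS1 changed by -0.69 ± 0.10 and -0.63 ± 0.10 in 3D and -0.52 ± 0.10 and -0.47 ± 0.10 in 2D, where the dSAP call was lost on log2(TPM + 1) (adjusted p = 0.103). LSS was lower than control in 3D, -0.65 ± 0.10 in WT and -0.57 ± 0.10 in dSAP. EBP was higher than control in 2D WT, 0.54 ± 0.04.

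INSIG1 changed sign between cultures in the WT and dSAP lines. It stood at 54.3, 54.3 and 51.4 CPM in 3D WT and 56.5, 63.5 and 56.7 CPM in 3D dSAP, and at 198, 195 and 212 CPM in 2D WT and 156, 132 and 147 CPM in 2D dSAP. Set against the control values given above, the 3D WT and dSAP libraries were the lower ones and the 2D WT libraries the higher ones. The log2 fold change against control was -0.86 ± 0.12 in 3D WT (adjusted p = 7.48e-06) and -0.71 ± 0.12 in 3D dSAP (adjusted p = 8.73e-05). It was 0.82 ± 0.11 in 2D WT (adjusted p = 8.48e-06) and 0.35 ± 0.11 in 2D dSAP (adjusted p = 0.0231). The 2D dSAP call was lost on log2(TPM + 1) (adjusted p = 0.157) and without replicate 1 or 2 of 2D control or replicate 1 or 3 of 2D dSAP. The interaction was -1.68 ± 0.16 for WT (adjusted p = 1.64e-06) and -1.06 ± 0.16 for dSAP (adjusted p = 0.000963; on log2(TPM + 1), -1.01 with adjusted p = 0.0536). Of all 33 genes, 9 had a more negative WT effect in 3D and 0 a more positive one, beside 9.18% of all genes tested (4.96% more negative, 4.22% more positive). For dSAP, 8 were more negative and 0 more positive, beside 2.34% (1.20% and 1.13%). The WT interaction was -0.77 ± 0.10 for MSMO1 (adjusted p = 8.56e-05), -0.58 ± 0.08 for STARD4 (adjusted p = 8.56e-05) and -0.55 ± 0.08 for DHCR7 (adjusted p = 0.000186). The dSAP interaction was -0.56 ± 0.08 for DHCR7 (adjusted p = 0.000677) and -0.36 ± 0.06 for EBP (adjusted p = 0.00237). SCD fell in both lines against control in 3D, -0.89 ± 0.23 and -0.95 ± 0.24 in WT and dSAP. Its 2D values, -0.07 ± 0.23 and -0.29 ± 0.23, and its interactions, -0.82 ± 0.33 and -0.66 ± 0.33 (adjusted p = 0.138 and 0.4), did not pass the test. For the interactions this rests on 3D dSRF replicate 1, which belongs to neither line but enters the shared estimate of spread. With it left out, the SCD interactions were -0.82 ± 0.18 for WT (adjusted p = 0.00375) and -0.66 ± 0.18 for dSAP (adjusted p = 0.0294), both called. Then 16 WT effects were more negative in 3D and 1 was more positive, beside 23.8% of all genes (12.7% more positive, 11.2% more negative). For dSAP 13 were more negative and 2 more positive, beside 11.4% of all genes (5.94% more positive, 5.46% more negative). The more positive ones were ELOVL6 in WT, 0.45 ± 0.06 (adjusted p = 9.7e-06), and ELOVL6 and TM7SF2 in dSAP, 0.23 ± 0.06 and 0.35 ± 0.12 (adjusted p = 0.0232 and 0.0474).

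The mutants were also set against the WT line. In dSAP, 1 of the 33 genes was higher and 3 were lower than in WT in 3D, and 1 was higher and 7 lower in 2D. The share of the 33 called was 12.1% in 3D, beside 12.1% of all genes tested (5.45% higher, 6.63% lower). In 2D it was 24.2%, beside 12.8% of all genes tested (5.09% higher, 7.71% lower). Without 3D dSRF replicate 1 in the shared fit, 3 were higher and 8 lower in 3D, beside 27.2% of all genes (13.1% higher, 14.1% lower), and 4 higher and 10 lower in 2D, beside 27.7% of all genes (12.7% higher, 15% lower). STARD4, ACLY and EBP were lower in dSAP in both cultures, by log2 fold changes of -0.24 ± 0.06 in 3D and -0.51 ± 0.06 in 2D for STARD4, -0.22 ± 0.05 and -0.34 ± 0.05 for ACLY, and -0.36 ± 0.04 and -0.34 ± 0.04 for EBP. On log2(TPM + 1) the ACLY calls and the 3D STARD4 call were lost. TM7SF2, a sterol reductase, was the gene higher in 3D, 0.59 ± 0.11 (adjusted p = 0.00143), with 17.1, 17.5 and 16.7 CPM in dSAP and 12.0, 9.96 and 12.1 CPM in WT. dSRF differed from WT in most genes, 22 higher and 9 lower in 3D and 13 higher and 17 lower in 2D, beside 65.9% of all genes tested in 3D (34.2% higher, 31.6% lower) and 64.0% in 2D (33.6% higher, 30.4% lower). SCD was 2.69 ± 0.25 in 3D (adjusted p = 1.51e-08; 3.02 ± 0.15 without 3D dSRF replicate 1) and 0.19 ± 0.23 in 2D (adjusted p = 0.48). SPRING1 was 2.18 ± 0.04 in 3D and 1.95 ± 0.04 in 2D. INSIG1 was -0.61 ± 0.12 in 3D and -2.57 ± 0.12 in 2D, and INSIG2 -1.09 ± 0.09 and -1.70 ± 0.09. With 3D dSRF replicate 1 left out, 21 genes were higher and 11 lower in 3D, beside 72.9% of all genes (36.5% higher, 36.3% lower), with 2.17 ± 0.04 for SPRING1, -0.45 ± 0.10 for INSIG1 and -1.02 ± 0.10 for INSIG2.

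Other genes of sterol and fatty acid handling were counted from lists chosen by role. The shares of all genes to set beside these counts are 35.1% higher and 31.3% lower for 3D dSRF against control, 34.5% and 31.5% for 2D dSRF, 18.0% and 17.0% for 3D WT, 20.1% and 19.2% for 2D WT, and 23.0% and 24.4% for control in 3D against 2D. With lists of 7 to 14 genes, the counts are given as a description. Of 8 further genes of SREBP processing and sterol sensing, the dSRF line had 3 higher and 3 lower than control in 3D and 1 higher and 3 lower in 2D, and control had 1 higher and 4 lower in 3D than in 2D. MBTPS2, the intramembrane protease that frees SREBP, was -0.61 ± 0.08 in 2D dSRF. ERLIN1, which takes part in sterol-dependent degradation at the endoplasmic reticulum, was -0.99 ± 0.11 in 3D dSRF. Of 7 genes of LXR signalling and sterol efflux, control had 1 higher and 5 lower in 3D than in 2D, the WT line had 1 higher and 3 lower than control in 3D and 0 higher and 4 lower in 2D, and dSRF 4 higher and 2 lower in 3D and 2 higher and 4 lower in 2D. ABCA1, which exports cholesterol, was -1.0 ± 0.13 in control in 3D against 2D, -0.97 ± 0.13 in dSAP and -0.38 ± 0.13 in WT. Against control in 3D, ABCA1 was higher in WT, 0.83 ± 0.13. RXRA, the partner of LXR, was below control in all 3 lines in both cultures, between -0.71 in 3D dSRF and -0.31 in 3D dSAP. Other genes of this list were higher in dSRF than in control. LPCAT3 was 0.92 ± 0.08 in 3D (0.87 ± 0.08 without 3D dSRF replicate 1) and 0.43 ± 0.08 in 2D. In the fit without that library, the LXR gene NR1H3 was 1.40 ± 0.09 in 3D dSRF and 0.69 ± 0.08 in 2D dSRF.

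Of 8 genes of sterol trafficking and storage, dSRF had 6 higher and 2 lower than control in 3D and 3 higher and 2 lower in 2D, beside 66.4% and 66.0% of all genes called in either direction. SOAT1, which esterifies cholesterol, was higher in every line against control, 0.41 ± 0.04 in 3D WT, 0.25 ± 0.04 in 3D dSAP and 0.43 ± 0.04 in 3D dSRF, and 0.55 ± 0.04, 0.40 ± 0.04 and 0.85 ± 0.04 in 2D. LIPA, the lysosomal lipase that frees cholesterol from esters, was 1.18 ± 0.06 in 3D dSRF and 0.82 ± 0.06 in 2D dSRF. TMEM97 and PLIN2 were lower in dSRF than in control. In the fit without 3D dSRF replicate 1, TMEM97 was -2.52 ± 0.09 in 3D and -1.17 ± 0.08 in 2D. PLIN2 was -1.20 ± 0.07 and -0.81 ± 0.06 in the same fit. NPC2, which carries cholesterol out of lysosomes, was lower in WT and dSAP, -0.65 ± 0.05 and -0.57 ± 0.05 in 3D and -0.51 ± 0.05 and -0.54 ± 0.05 in 2D. Of 8 genes of other mevalonate branches, dSRF had 3 higher and 1 lower than control in 3D and 3 higher and 3 lower in 2D, with FNTB, a farnesyltransferase subunit, at -0.90 ± 0.06 and -0.98 ± 0.06. Of 14 genes of fatty acid supply and esterification, WT had 4 higher and 7 lower than control in 3D and 3 higher and 5 lower in 2D, and dSRF 6 higher and 6 lower in 3D and 5 higher and 6 lower in 2D. DGAT1, which makes triglycerides, was 1.20 ± 0.07 in 3D WT and 1.35 ± 0.07 in 2D WT. MLXIPL was lower than control in 3D WT, -2.58 ± 0.26. ELOVL5, an elongase of polyunsaturated fatty acids, was 1.38 ± 0.08 in 3D dSRF and 1.46 ± 0.08 in 2D dSRF. MLXIPL, DGAT2 and ME1 were lower in dSRF than in control. In the fit without 3D dSRF replicate 1 they were -2.66 ± 0.30, -1.55 ± 0.13 and -1.64 ± 0.09 in 3D. Their 2D values in that fit were -3.20 ± 0.26, -1.82 ± 0.12 and -1.31 ± 0.07. SLC25A1, the citrate carrier that feeds ACLY, was -0.92 ± 0.05 in 2D dSRF and -0.50 ± 0.05 in control in 3D against 2D. ACACB, the mitochondrial acetyl-CoA carboxylase, was 1.25 ± 0.17 in control in 3D against 2D. The 3D dSRF counts without replicate 1 of that group were 3 higher and 4 lower for SREBP processing, 3 higher and 2 lower for LXR and efflux, 5 higher and 2 lower for trafficking and storage, 3 higher and 2 lower for the mevalonate branches and 7 higher and 6 lower for fatty acid supply, beside 72.8% of all genes (37.2% higher, 35.6% lower). The 3D dSRF values were then -1.25 ± 0.04 for ERLIN1, -0.72 ± 0.06 for RXRA, 0.39 ± 0.04 for SOAT1, 1.14 ± 0.05 for LIPA, -0.86 ± 0.07 for FNTB and 1.5 ± 0.04 for ELOVL5.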

How the data were processed

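RNA-seq used total RNA depleted of ribosomal RNA, per the labels' protocols; the molecule field says polyA RNA. FastQC, Salmon (version 11.3 as written) and hg38 are named in the submitters' processing notes; the sources used here do not name the annotation. The files deposited give estimated counts per gene (47.4% of counts above 0 were over 0.001 from a whole number) and TPM, normalised by the authors for length and depth. The estimated counts were rounded here and fitted with edgeR 4.0.16 in R 4.3.3: filterByExpr, TMM (factors 0.89 to 1.09), and 1 robust quasi-likelihood model of 8 groups from all 24 libraries (16 residual degrees of freedom, coefficient of variation 13.1%), with 17 comparisons. The call threshold was 0.05 after Benjamini-Hochberg adjustment over 14986 genes. CPM are TMM-normalised. The steps were tested on simulated data.

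The 33 genes and the lists were chosen with earlier results of these data known. All 33 enter the counts, but not every call is given with its value. The 6 regulators and genes with the lowest adjusted p and groups that do not overlap are described most. From each list only some called genes are named. Positions are from GENCODE 29 (GRCh38). Replicate numbers are shared between groups, but the labels do not say that they pair libraries. Only 2 of 84 same-numbered pairs had deviations correlated over 0.1 (range -0.13 to 0.12), so the main fit used no pairing. The alternatives were RLE size factors, no low-count filter, DESeq2 1.42.0, limma 3.58.1 on log2 of the deposited TPM with a pseudocount of 1 or 0.1, a replicate block, only the libraries compared, and each library left out. Figures were drawn with Python 3.11.15 and matplotlib 3.10.9.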

Additional observations from a re-analysis of the deposited data

Results flagged for a closer look

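These genes were singled out because a line's difference from control, tested as an interaction, itself differed between 3D and 2D (edgeR, adjusted p under 0.05). The values are log2 interactions, 3D minus 2D, and the 3 lines share the control libraries.

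For the WT line they were SPRING1 -0.19, INSIG1 -1.68, HMGCS1 -0.30, FDPS -0.50, LSS -0.44, MSMO1 -0.77, EBP -0.33, DHCR7 -0.55 and STARD4 -0.58. The values for HMGCS1, LSS and SPRING1 were no longer called without the low-count filter, and that of FDPS was lost on log2(TPM + 1).

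For the dSAP line they were INSIG1 -1.06, ACAT2 -0.32, HMGCS1 -0.37, FDPS -0.48, MSMO1 -0.43, EBP -0.36, DHCR7 -0.56 and STARD4 -0.31. Only those for EBP and DHCR7 were called in every alternative.

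For the dSRF line they were SREBF1 1.09, SREBF2 1.08, INSIG2 0.49, ACAT2 -0.30, FDPS 0.54, FDFT1 1.17, TM7SF2 0.57, NSDHL 0.57, DHCR7 0.90, STARD4 0.41, ACACA 0.41, FASN 1.28, SCD 1.68 and FADS2 0.78. The values for ACACA, TM7SF2, FADS2 and NSDHL were lost in at least 1 alternative, and that of ACACA was lost without 3D dSRF replicate 1 (adjusted p = 0.0654). With that library left out NSDHL was 0.37 ± 0.10, against 0.57 ± 0.15 with all libraries. KRT8 and MRTFA also differ in the dSRF libraries, and their part in these values was not tested.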

How the results depend on the processing

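Of 312 calls of a gene in a comparison, 222 were kept in every alternative. RLE size factors and DESeq2 ended none, the replicate block 6, omitting the low-count filter 18, fitting only the libraries compared 19, and either TPM scale 63. Both TPM scales reversed 3 small values: CYP51A1 in 2D dSAP against WT (0.04), STARD4 in 2D dSRF against WT (0.00) and HMGCS1 in control 3D against 2D (0.10). On log2(TPM + 0.1) the median of all genes moved to 0.211 in 2D dSRF against WT, 0.123 in WT 3D against 2D and -0.108 in 2D WT against control, where the split of all genes was 2004 higher and 3301 lower, against 3012 and 2879 on counts; the cause was not tested.

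The counts of the 33 genes called that moved by over 1.5 times were as follows. For 2D dSAP against control, 17 became 11 on both TPM scales, and for 3D dSAP against control 19 became 12. For 2D dSAP against WT, 8 became 14 with only the libraries compared, and leaving out 1 library gave 5 to 14. For 3D dSAP against WT, 4 became 7 with DESeq2 and 12 with only the libraries compared, and leaving out 1 library gave 4 to 11. For dSRF in 3D against 2D, 5 became 2 on both TPM scales and 0 with only the libraries compared, where no gene of all tested was called, and leaving out 1 library gave 2 to 16. The WT interaction's 9 became 16 with only the libraries compared and 6 to 17 with 1 library left out, and the dSAP interaction's 8 became 2 on both TPM scales, 14 with only the libraries compared and 4 to 15 with 1 library left out. The highest value of each range came without 3D dSRF replicate 1; fewer calls with a library left out go with fewer samples. Over all genes, the count for dSRF in 3D against 2D was 7351 without that library, against 2551.

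The SE of the WT and dSAP interactions for SCD was 0.33 with all libraries and 0.18 without 3D dSRF replicate 1. Strand use in counting is not stated, which limits the genes that overlap another.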
